A study of Mus musculus with 4 samples.

Results

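The insulin-like growth factor 1 and colony-stimulating factor axes were followed here through 7 genes: the ligands Igf1 and Csf1, and the receptor genes Igf1r, Csf1r, Csf2ra, Csf2rb and Csf3r. They were taken by gene symbol from the 32285 genes of the count matrices, and each symbol matched 1 gene. The cells were sorted as CD45 positive cells (CD45 is a surface protein of leukocytes and microglia) from thalamus and hippocampus (HPC), in C57B6/J mice. All mice had received a Cortical brain injury, so every comparison was between 2 regions of injured brains and none was with uninjured tissue. Each region had 4 tagged sets of cells (n = 4 and 4), and the methods of the study give 4 pooled mice per region. That 1 set is 1 mouse is inferred from these numbers and is not stated. Whether the same mice gave both regions is not stated either. The 2 regions were captured as separate 10x libraries, so that region and library cannot be told apart. The sets of a region shared 0 cell barcodes and the 2 libraries shared 65. The p-values below measure the spread between these sets. The labels give neither the age of the mice nor the time after injury.

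Igf1 encodes a secreted growth factor, and Igf1r its receptor tyrosine kinase, which signals through insulin receptor substrates, PI3 kinase and AKT. Csf1 encodes macrophage colony-stimulating factor and Csf1r its receptor tyrosine kinase, on which microglia depend for survival. Interleukin 34 is the other ligand of CSF1R. Csf2ra encodes the ligand-binding chain and Csf2rb the shared beta chain of the receptor for granulocyte-macrophage colony-stimulating factor (GM-CSF, from Csf2), and Csf3r encodes the receptor for granulocyte colony-stimulating factor (from Csf3), best known from neutrophils. In the brain, microglia in a disease-associated (DAM) state are known to express more Igf1 and Csf1 than homeostatic microglia.

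After filtering, 24939 of 29190 cells were kept, with 9789875 to 26636526 UMIs (molecules counted once by their identifier) and 4261.5 to 4657 median UMIs per cell in a set. By their marker genes, 18714 cells were named microglia-like (8270 from the thalamus and 10444 from the HPC). A further 546 were macrophage- or monocyte-like, 1009 neutrophil-like, 3418 T- or NK-like, 149 B- or plasma-like and 347 dendritic-like, and 756 stayed unnamed. Among microglia-like cells, 2 clusters were named homeostatic-like (3119 thalamus and 5567 HPC cells) and 2 DAM-like (2050 and 667). Each homeostatic-like cluster met the rule with 3 of 10 homeostatic markers, the fewest allowed, and none was among its 10 leading genes. Without integration of the regions, a cluster led by Ctnnd2, Myo18b and Bank1 met 2 of 10 and stayed unnamed. All 12 microglial markers were detected in the microglia-like cells of both regions. The microglia-like cluster led by Spp1, Cst7 and Apoc1 (911 cells) met the naming rule with 6 of the 12, and the others with all 12. The summed macrophage or monocyte markers were at 1.67 to 4.40 UMIs per 10000 in thalamic DAM-like cells and 0.187 to 0.291 in thalamic homeostatic-like cells. The summed microglial markers were at 131.2 to 167.4 and 217.2 to 220.6. DAM-like cells made up 35.5%, 20%, 18.6% and 22.6% of the microglia-like cells of thalamus sets 1 to 4, against 11.2%, 4.04%, 2.83% and 5.40% in the HPC. HPC set 1 stood apart, with 70.2% of its microglia-like cells in an unnamed cluster led by Aoah, Cp and Rxrg and 9.98% in homeostatic-like clusters, against 62.1% to 86.3% homeostatic-like in the other HPC sets. Levels below are UMIs per 10000 UMIs of the named cells in a set. They are not corrected for transcript length, so they are compared within a gene. Sets with under 20 cells of a class were left out of means and tests.

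All 7 genes are protein-coding. On GRCm38, Igf1 lies at chr10:87858265-87937042 on the plus strand, where it overlaps the antisense gene Igf1os. Igf1r lies at chr7:67952827-68233668 (plus), Csf1 at chr3:107741048-107760469 (minus), Csf2ra at chr19:61223957-61228429 (minus), Csf2rb at chr15:78325752-78353847 (plus), and Csf3r at chr4:126024550-126044440 (plus). The sources do not say if intronic reads count, which bears most on Igf1r with its gene body of 280842 bases. Csf2rb has a near-identical neighbour, Csf2rb2, so that reads shared by both could not be assigned with certainty.

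Igf1, Csf1 and Csf2ra were the 3 members called higher in thalamic microglia-like cells, so the 250 bases before their RefSeq starts are shown (GRCm38.p6, 5′ to 3′ on the strand of the gene). RefSeq promoters were matched for 5 of the 7 members. Capitals mark GAGGAA, the core of the PU.1 motif, and TGANTCA, a loose form of the AP-1 motif that allows any base in the centre. Both were searched on both strands, with no overlap between the 2 motifs in these windows. TTGCNNAA (C/EBP) and CACGTG (E-box) were searched in the same way.
Igf1 (chr10:87860861-87861110, plus): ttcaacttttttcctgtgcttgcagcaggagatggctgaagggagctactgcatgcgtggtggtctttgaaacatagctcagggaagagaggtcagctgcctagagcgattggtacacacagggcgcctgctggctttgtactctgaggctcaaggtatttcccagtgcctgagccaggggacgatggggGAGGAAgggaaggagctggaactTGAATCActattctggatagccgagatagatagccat
Csf1 (chr3:107760470-107760719, minus): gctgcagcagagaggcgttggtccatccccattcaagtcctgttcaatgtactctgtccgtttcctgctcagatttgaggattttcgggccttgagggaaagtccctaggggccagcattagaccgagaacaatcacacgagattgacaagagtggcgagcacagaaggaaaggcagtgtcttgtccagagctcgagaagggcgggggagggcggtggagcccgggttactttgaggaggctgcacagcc
Csf2ra (chr19:61228419-61228668, minus): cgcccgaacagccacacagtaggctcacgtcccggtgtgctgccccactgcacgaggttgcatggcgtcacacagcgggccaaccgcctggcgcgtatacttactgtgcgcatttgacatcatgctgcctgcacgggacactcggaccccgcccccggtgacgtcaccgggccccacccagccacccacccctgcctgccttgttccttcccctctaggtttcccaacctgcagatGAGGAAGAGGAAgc
Igf1 held 1 match to GAGGAA and 1 to TGANTCA (as TGAATCA), Csf2ra held 2 to GAGGAA, and Csf1 held none of the 4 motifs. Of 32851 promoter windows of the same length, 23.3% held GAGGAA, 6.75% TGANTCA, 9.56% TTGCNNAA and 6.02% CACGTG. A match is a run of letters and not evidence of binding.

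The ligand Igf1 came mostly from microglia-like cells, which held 91.7% of its 5444 UMIs and 78.0% of all UMIs. In microglia-like cells it stood at 1.69, 0.627, 0.805 and 1.11 in thalamus sets 1 to 4 and at 0.148, 0.0495, 0.0486 and 0.0461 in the HPC sets. Every thalamus set was above every HPC set, and HPC set 1 was the highest of its region. Within microglia-like cells, DAM-like cells held 79.9 ± 5.6% (SD, n = 4) of the Igf1 UMIs in the thalamus, where they were 24.2% of the cells, and 82.2 ± 7.7% in the HPC, where they were 5.86%. Most Igf1 thus lay in DAM-like cells in both regions, although these cells were few in the HPC.

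Within DAM-like cells themselves, Igf1 was at 3.92, 2.09, 3.29 and 3.31 in the thalamus sets and at 1.07, 0.766, 1.36 and 0.552 in the HPC sets. The lowest thalamus set was above the highest HPC set. Igf1 was 3.69-fold higher in thalamic DAM-like cells (log2 fold change 1.88, SE 0.20, edgeR adjusted p = 4.29e-05). It was called in 19 of 19 alternatives. The summed level of the 11 detected DAM markers moved with it, at 685.9 to 861.2 in thalamic and 288.1 to 646.6 in HPC DAM-like cells, and its part in the difference was not tested.

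In homeostatic-like cells Igf1 was nearly absent, with 11, 9, 21 and 20 UMIs in the thalamus sets and 0, 6, 2 and 2 in the HPC sets, or 0.0291 to 0.0561 and 0 to 0.00536 per 10000. This fitted difference was also called (log2 3.44, SE 0.39, edgeR adjusted p = 2.33e-05). The level was however no higher than in cells named T- or NK-like, in which no Igf1 is foreseen. These stood at 0.190 ± 0.118 in thalamus sets and 0.0090 ± 0.0111 in HPC sets (n = 4 each). Within this class, thalamic sets had Igf1 at 0.191 to 0.649 in the cluster led by Gzma and Ncr1. In the thalamic T cell cluster led by Themis and Cd4, Igf1 was at 0.0574 ± 0.0185 (n = 4). How much of the homeostatic-like Igf1 was background RNA was not tested. After thinning to 2000 UMIs per cell, 0.877% of thalamic homeostatic-like cells had an Igf1 UMI, against 1.46% of T- or NK-like cells and 36.3% of DAM-like cells (1.66%, 3.5% and 54.3% before thinning, median depths 4374, 3529 and 5305.5 UMIs).

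Outside microglia, Igf1 was found in macrophage- or monocyte-like cells, at 0.523, 0.306, 0.693 and 1.21 in the thalamus sets and 0.255, 0.606 and 0.218 in HPC sets 1 to 3. These sets overlapped between regions, and the difference was not called (log2 0.88, SE 0.45, edgeR adjusted p = 1.00). In the HPC, macrophage- or monocyte-like cells were above microglia-like cells in each of these 3 sets, on 26, 23 and 3 Igf1 UMIs. The 95% Poisson interval of HPC set 3, 0.0450 to 0.638, held its microglia-like value of 0.0486. In the thalamus the ranges of the 2 classes overlapped. Neutrophil-like cells held 12 Igf1 UMIs in all and dendritic-like cells 10.

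**Figure D1:**
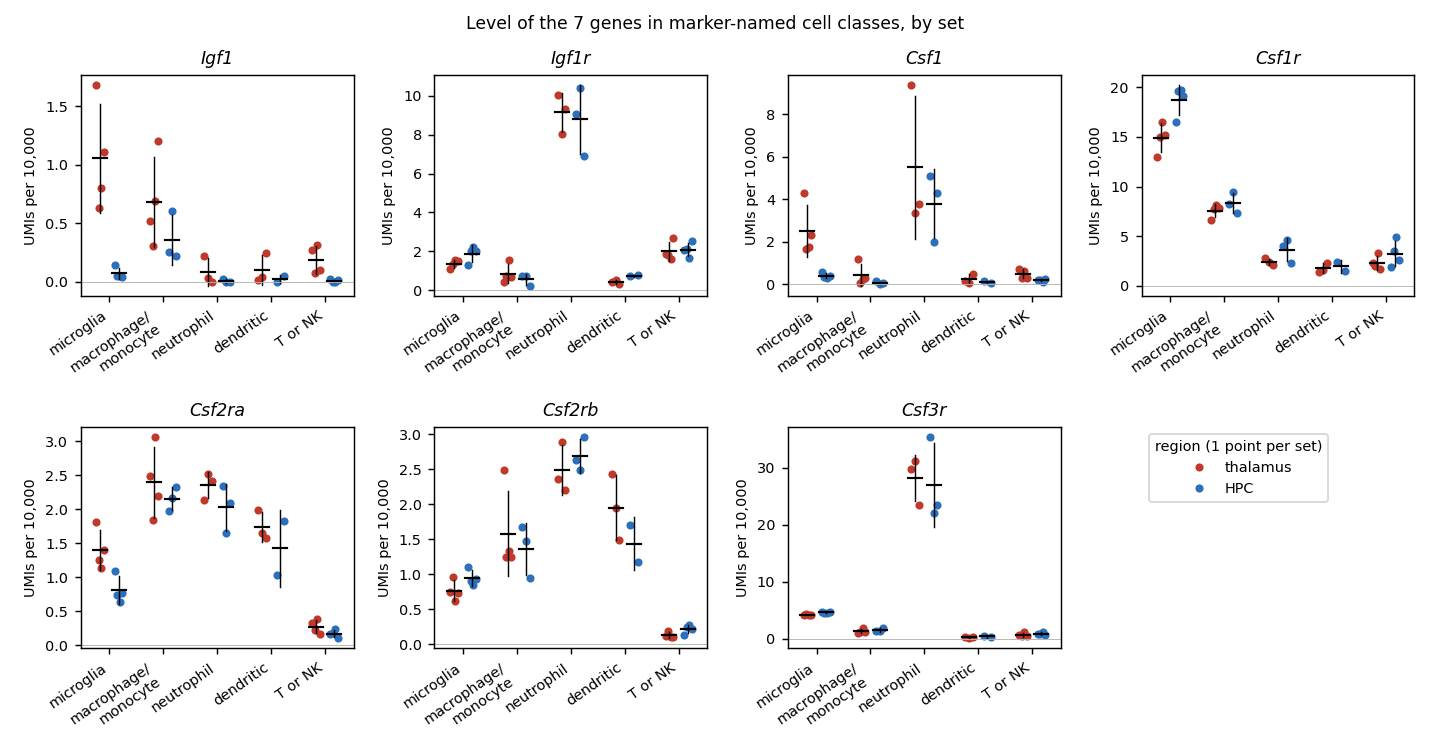
UMIs per 10000 of the 7 genes (1 panel each) in 5 marker-named cell classes, 1 point per set with at least 20 cells, thalamus in red and HPC in blue, bars mean ± SD. Igf1 and Csf1 in microglia-like cells separate the regions, while Csf3r, Igf1r and Csf1 are highest in neutrophil-like cells.

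Among whole cell classes, the ligand Csf1 was highest in neutrophil-like cells, at 5.52 ± 3.37 in thalamus sets (9.40, 3.37 and 3.78) and 3.80 ± 1.61 in the HPC (n = 3 each). The DAM-like part of thalamic microglia stood at 5.91 ± 1.94 (n = 4). Microglia-like cells, being many more, held 86.2% of the 15083 Csf1 UMIs and neutrophil-like cells 7.76%. In microglia-like cells Csf1 was at 4.30, 1.67, 1.73 and 2.30 in thalamus sets and at 0.572, 0.326, 0.307 and 0.393 in the HPC sets. The regions did not overlap, and Csf1 was 6.54-fold higher in the thalamus (log2 2.71, SE 0.35, edgeR adjusted p = 0.00212). This call was kept in 19 of 19 alternatives, with log2 fold changes of 2.28 to 2.98.

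DAM-like cells carried Csf1 at 8.67, 4.16, 5.59 and 5.22 in the thalamus sets and 2.27, 2.18, 3.53 and 1.76 in the HPC sets. All thalamus sets were higher (2.73-fold, log2 1.45, SE 0.20, edgeR adjusted p = 0.000319), and the call was lost when the same number of cells was drawn from each set (adjusted p = 0.0841). DAM-like cells held 63.3 ± 7.9% of the microglial Csf1 UMIs in the thalamus and 36.3 ± 7.5% in the HPC. Homeostatic-like cells held 7.92 ± 4.2% and 30.7 ± 20.6%. In the thalamus Csf1 was also seen in interferon-like microglia at 2.75 ± 1.79, against 0.652 ± 0.142 in the HPC (n = 4 each).

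In homeostatic-like cells Csf1 was at 0.785, 0.368, 0.403 and 0.480 in thalamus sets and 0.196, 0.175, 0.186 and 0.196 in the HPC, again without overlap (log2 1.39, SE 0.17, edgeR adjusted p = 5.14e-05). Cells named T- or NK-like had 0.484 ± 0.214 in the same thalamus sets and 0.182 ± 0.0469 in the HPC sets, but the clusters of this class were unequal in Csf1. Thalamic sets had 0.213 to 0.289 in the cluster led by Themis and Cd4, 0.0797 to 0.120 in that led by Trdc and 0.517 to 1.44 in that led by Gzma and Ncr1, genes of cytotoxic and natural killer cells. The thalamic homeostatic-like sets lay above the first 2 of these clusters. In the HPC they lay below the Themis and Cd4 cluster (0.207 to 0.511 in 3 sets) and above the Trdc cluster (0 to 0.0790). How much of the homeostatic-like Csf1 was background RNA was not tested.

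**Figure D2:**
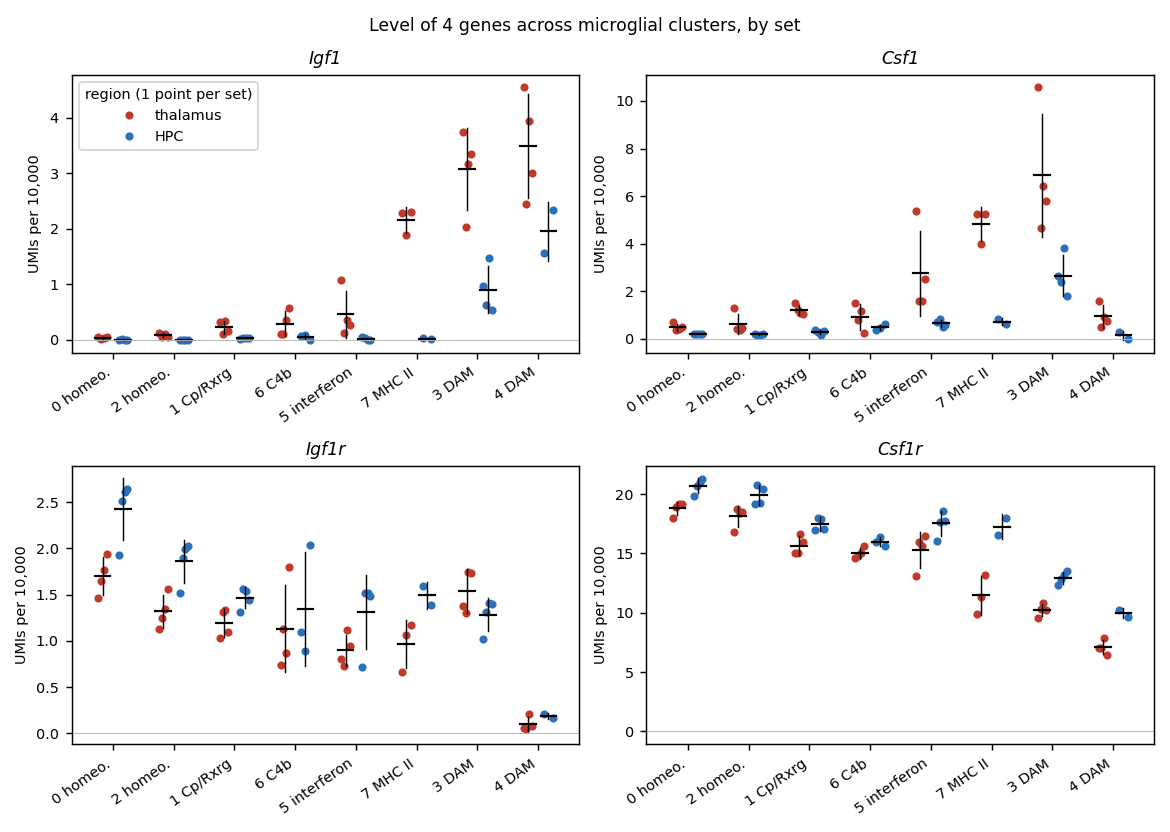
UMIs per 10000 of Igf1, Csf1, Igf1r and Csf1r in 8 microglial clusters (numbered, with the state or leading genes), 1 point per set with at least 20 cells, thalamus in red and HPC in blue, bars mean ± SD. Igf1 is high in both DAM-like clusters, Csf1 only in cluster 3 of them, and the mean of Csf1r is lowest in DAM-like cells.

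The 2 DAM-like clusters differed in which members they carried. Both had Igf1, at 3.08 ± 0.73 in thalamic cells of cluster 3 and 3.49 ± 0.94 in those of cluster 4 (n = 4 each). Csf1 was at 6.87 ± 2.58 in cluster 3 and 0.941 ± 0.475 in cluster 4, Igf1r at 1.54 ± 0.24 and 0.0991 ± 0.0779, and Csf3r at 4.24 ± 0.13 and 0.555 ± 0.183. Csf2ra was similar, at 2.03 ± 0.17 and 2.46 ± 0.37. Cluster 4 is poor in the nuclear RNA Malat1 (medians of 4.58 to 8.76 UMIs per 10000 in a set, against 150.7 to 232.5 in cluster 3) and held 27.7% to 42.5% of the DAM-like cells of thalamus sets and 5.45% to 32.9% of those of HPC sets. Its 10 leading genes included Ms4a7, which is in the macrophage or monocyte marker list. These values describe clusters and were not tested, since clusters are made from the cells' own expression, although the 7 members were left out of the genes used for clustering.

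A further microglial cluster was led by H2-Aa, H2-Eb1 and Cd74, genes of antigen presentation, carried 9 of the DAM markers and stayed unnamed. It had Igf1 at 2.16 ± 0.24 in 3 thalamus sets and at 0.0139 and 0.0333 in the 2 HPC sets with at least 20 cells, and Csf1 at 4.83 ± 0.71 and at 0.612 and 0.832. In this cluster Igf1 was as low in the HPC as in the unnamed cluster led by Aoah, Cp and Rxrg (0.0316 ± 0.0068, n = 4).

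Because the regions differ in how many microglia are DAM-like, the pooled levels were also computed with the cluster make-up of the other region. The pooled thalamus to HPC ratio of Igf1 was 13.5, and it was 5.13 with the HPC make-up and 3.94 with the thalamus make-up in both regions. For Csf1 the ratios were 6.28, 3.39 and 3.28, and for Csf2ra 1.69, 1.40 and 1.42. The ratio of Csf1r was 0.8, 0.896 and 0.873. Equal make-up thus lowered the ratios of Igf1 and Csf1, which stayed above 3. These are descriptions without a test.

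**Figure D3:**
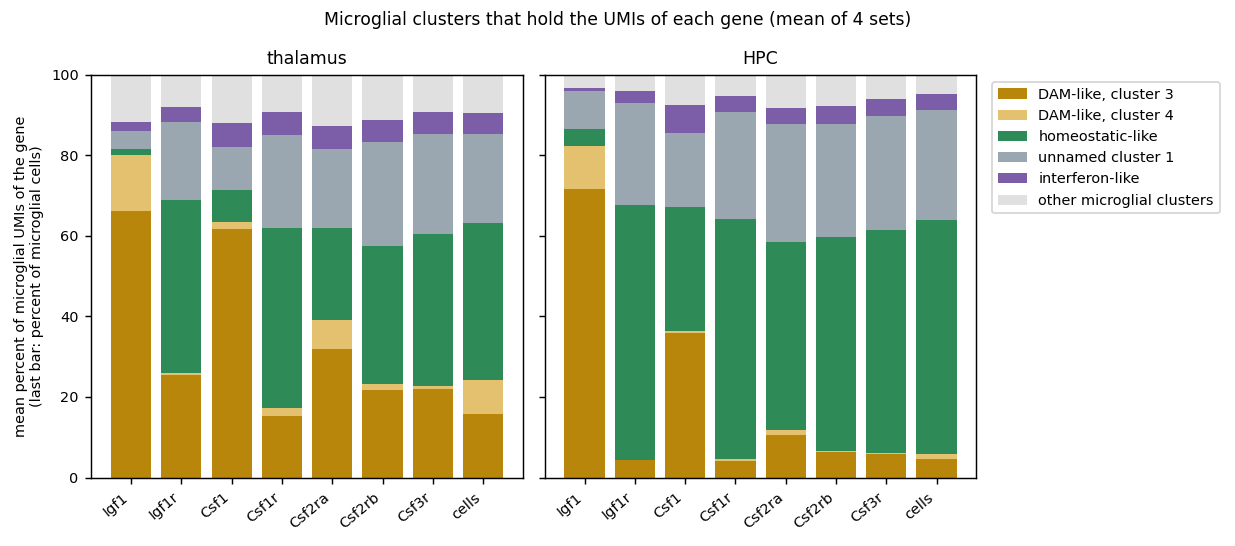
Mean percent of the microglial UMIs of each gene that lay in named microglial clusters (stacked, 4 sets per region), and in the last bar the percent of microglia-like cells. DAM-like cells made up 24.2% of the microglia-like cells in the thalamus and 5.86% in the HPC but held 79.9% and 82.2% of the Igf1 UMIs.

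The receptor Igf1r was highest in neutrophil-like cells, at 9.15 ± 1.01 in thalamus sets and 8.81 ± 1.78 in the HPC (n = 3 each). T- or NK-like cells had 1.61 to 2.68 and 1.66 to 2.52 in the sets of the 2 regions, and microglia-like cells 1.06 to 1.54 and 1.27 to 2.22. Within T- or NK-like cells Igf1r was highest in the cluster led by Trdc and Il23r, genes of gamma delta T cells, at 4.63 ± 0.82 in the thalamus (n = 4) and 5.12 ± 0.43 in the HPC (n = 3), against 1.43 ± 0.45 and 1.81 ± 0.34 in that led by Themis and Cd4. The ratio of Igf1r to Csf1r UMIs was 103 to 100 in thalamic T- or NK-like cells and 9.05 to 100 in thalamic microglia-like cells. This ratio mixes clusters. Over both regions the cluster led by Gzma and Ncr1 held 2351 of the 3260 Csf1r UMIs of T- or NK-like cells. The cluster led by Trdc held 1735 of their 3115 Igf1r UMIs. How much of their Igf1r was background RNA was not tested.

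In homeostatic-like microglia Igf1r was at 1.40, 1.57, 1.68 and 1.87 in the thalamus sets and 1.74, 2.28, 2.34 and 2.39 in the HPC sets. HPC set 1 lay within the thalamus range and the other HPC sets above it. Igf1r was lower in the thalamus (log2 -0.43, SE 0.08, edgeR adjusted p = 0.00306). With a marker gate on each cell in place of clusters, none of the 4 members called in homeostatic-like cells was called, with adjusted p = 0.0702 for Igf1, 0.0656 for Csf1, 0.0972 for Igf1r and 0.473 for Csf2ra. In DAM-like cells it was at 1.09, 1.14, 1.51 and 1.54 in thalamus sets and 0.893, 1.22, 1.36 and 1.36 in the HPC, with sets that overlapped and no call (log2 0.30, SE 0.14, adjusted p = 0.299).

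The region effects in the 2 states differed by the interaction term, the DAM-like effect minus the homeostatic-like effect being 0.70 on the log2 scale (SE 0.12, edgeR adjusted p = 0.000515). Igf1r was 1 of 7 members called in this test, against 2.02% of all genes tested. It was called in 16 of 18 alternatives, and not with a marker gate on each cell (adjusted p = 0.287) or with equal numbers of cells (adjusted p = 0.117). In all 8 sets Igf1r was lower in DAM-like than in homeostatic-like cells, a description with no test. These DAM-like values pool cluster 3 with the Malat1-poor cluster 4, where Igf1r was nearly absent. In cluster 3 alone Igf1r was at 1.37, 1.3, 1.75 and 1.73 in thalamus sets, above the homeostatic-like level in set 3 and close to it in set 1, while in HPC sets it reached at most 1.40 and was below it in each. Without Malat1-poor cells the interaction was also called and in the same direction. For Igf1 the region effect was smaller in DAM-like than in homeostatic-like cells by 1.44 on the log2 scale without a call (SE 0.41, edgeR adjusted p = 0.0572). It was called with total UMIs as the scale (adjusted p = 0.0263) and without HPC set 2 (0.0463). The homeostatic-like Igf1 level in it was very low, and the part of background RNA in that level was not tested. The sum of 10 genes of the response to cell dissociation moved with region in homeostatic-like cells, at 49.8 to 57.3 UMIs per 10000 in thalamus sets and 34.7 to 39.2 in HPC sets, and its part in this result was not tested.

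**Figure D4:**
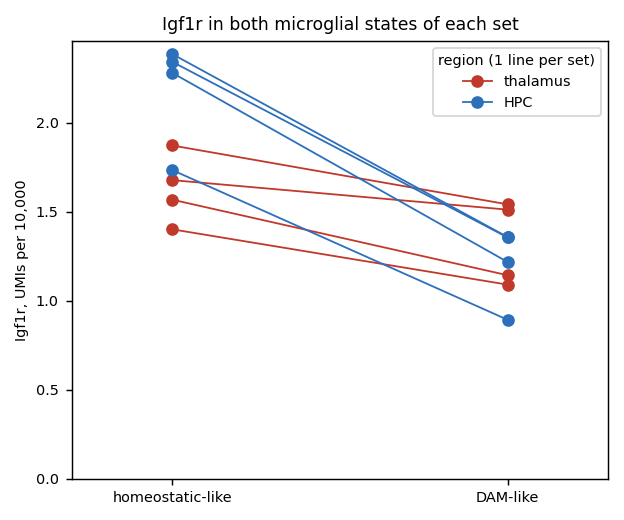
Igf1r UMIs per 10000 in homeostatic-like and DAM-like microglia of each set, 1 line per set, thalamus in red and HPC in blue. Every line falls, from 1.40 to 2.39 in homeostatic-like to 0.893 to 1.54 in DAM-like cells (clusters 3 and 4 pooled), and the HPC lines fall further. In cluster 3 alone, which is not drawn, thalamus set 3 was above its homeostatic-like level.

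The receptor Csf1r was highest in microglia-like cells, which held 93.6% of its 168572 UMIs. It was at 12.9, 15.0, 16.5 and 15.2 in the thalamus sets and 16.5, 19.6, 19.8 and 19.2 in the HPC sets, so the lowest HPC set lay just above the highest thalamus set. The difference was not called (log2 -0.26, SE 0.08, edgeR adjusted p = 0.0598). It was called in 6 of 19 alternatives, among them that without HPC set 1 (adjusted p = 0.0164). With total UMIs as the scale instead of TMM factors, an alternative added after seeing the data, it was called in microglia-like cells (log2 -0.33, SE 0.10, edgeR adjusted p = 0.0456) and in DAM-like cells (log2 -0.38, SE 0.09, adjusted p = 0.0228).

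Csf1r was at 9.0, 9.94, 10.4 and 9.76 in DAM-like cells of the thalamus sets and 12.0, 12.6, 13.1 and 13.4 of the HPC sets, and at 17.8, 18.9, 19.0 and 19.0 and 19.5, 20.7, 20.3 and 20.9 in homeostatic-like cells. The regions did not overlap in either state, and in neither was the difference called (log2 -0.28, adjusted p = 0.113 and log2 -0.12, adjusted p = 0.203, edgeR). Macrophage- or monocyte-like cells had 6.63 to 8.14 in the thalamus and 7.35 to 9.43 in the HPC.

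The GM-CSF receptor chain Csf2ra was at 1.82, 1.26, 1.13 and 1.40 in microglia-like cells of the thalamus sets and 1.10, 0.732, 0.635 and 0.774 of the HPC sets. The regions did not overlap, although HPC set 1 lay close to the lowest thalamus set. Csf2ra was 1.81-fold higher in the thalamus (log2 0.85, SE 0.21, edgeR adjusted p = 0.0245), a call kept in 14 of 19 alternatives. It was lost without thalamus set 1 (adjusted p = 0.0635), thalamus set 4 (0.062), HPC set 2 (0.0787), HPC set 3 (0.0567) or HPC set 4 (0.0694).

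In DAM-like cells Csf2ra was at 2.40, 1.92, 2.00 and 2.10 in thalamus sets and 1.67, 1.38, 1.59 and 1.48 in the HPC, again without overlap (log2 0.55, SE 0.11, edgeR adjusted p = 0.00813). This call was lost with a marker gate on each cell (adjusted p = 0.711), without integration of the regions (0.188) and with equal cells per set (0.114). In homeostatic-like cells the sets overlapped, at 0.716 to 1.06 and 0.565 to 0.754, and Csf2ra was called (log2 0.45, SE 0.10, edgeR adjusted p = 0.0132), but not without HPC set 3 (adjusted p = 0.0515), with a marker gate on each cell (0.473), without integration (0.149) or with equal cells per set (0.246).

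The shared chain Csf2rb was highest in neutrophil-like cells, at 2.48 ± 0.35 in thalamus sets and 2.69 ± 0.24 in the HPC (n = 3 each), and in microglia-like cells was at 0.749, 0.962, 0.617 and 0.731 in the thalamus sets and 1.10, 0.902, 0.842 and 0.931 in the HPC sets. These sets overlapped and no difference was called (log2 -0.24, SE 0.14, edgeR adjusted p = 0.269). Both receptor chains were also found in macrophage- or monocyte-like cells, with Csf2ra at 2.39 ± 0.52 and 2.16 ± 0.17 and Csf2rb at 1.58 ± 0.61 and 1.36 ± 0.37 (n = 4 and 3), and in dendritic-like cells.

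The receptor Csf3r was far highest in neutrophil-like cells, at 28.2 ± 4.1 and 26.9 ± 7.3 (n = 3 each), which held 13.6% of its UMIs and 1.83% of all UMIs. In microglia-like cells it was at 4.19, 4.29, 4.14 and 4.22 in the thalamus sets and 4.79, 4.63, 4.56 and 4.70 in the HPC sets. The regions did not overlap, but the difference was small and not called (log2 -0.08, SE 0.06, edgeR adjusted p = 0.359). Among thalamic microglial clusters its mean was lowest in the Malat1-poor cluster 4 (0.555), and it was 1.78 ± 0.91 in cycling-like cells (n = 3).

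In all, 3 of 7 members were called in microglia-like cells, where 14% of the 12947 genes tested were called (9.05% higher and 4.9% lower in the thalamus), and all 3 were higher. In homeostatic-like cells 3 members were called higher and 1 lower, against 5.78% of genes called (3.77% higher and 2.01% lower). In DAM-like cells 3 members were called, all higher, against 4.03% of genes (2.79% higher). Per 10000 UMIs the regions did not overlap in microglia-like cells for 5 members, with Igf1, Csf1 and Csf2ra higher in the thalamus (5.72% of genes with a UMI) and Csf1r and Csf3r lower (7.92%). The same 5 members did not overlap in DAM-like cells, in the same directions (3.01% of genes higher and 5.09% lower). In homeostatic-like cells Igf1 and Csf1 did not overlap and were higher (3.95%), and Csf1r did not overlap and was lower (3.28%). With the set number as a block, an alternative, 5 of 7 members were called in microglia-like cells (30.2% of genes). Igf1r (edgeR adjusted p = 0.000473) and Csf1r (0.00311) were added. That sets of the same number in the 2 regions belong together is not stated, so the basis of this block is not known. No member was called in macrophage- or monocyte-like cells, of 6 tested (0.0159% of genes called, with sets that did not overlap for 1.96% of genes higher and 1.85% lower), or in T- or NK-like cells, of 7 tested (0.0299%), while 240 and 622 genes had an unadjusted edgeR p under 0.05. In T- or NK-like cells the sets of Igf1 and Csf1 did not overlap and were higher in the thalamus, as for 1.91% of genes with a UMI there (log2 3.39, SE 0.67, edgeR adjusted p = 0.115 for Igf1, and log2 1.24, adjusted p = 0.327 for Csf1). Per 100 Csf1r UMIs, these thalamic cells held 7.72 Igf1 and 21.2 Csf1 UMIs, against 7.51 and 17.8 in thalamic microglia-like cells. In the HPC, T- or NK-like cells held 0.686 Igf1 and 8.30 Csf1 UMIs per 100 Csf1r UMIs, against 0.444 and 2.27 in microglia-like cells. These ratios mix clusters, and the part of background RNA in them was not tested.

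**Figure D5:**
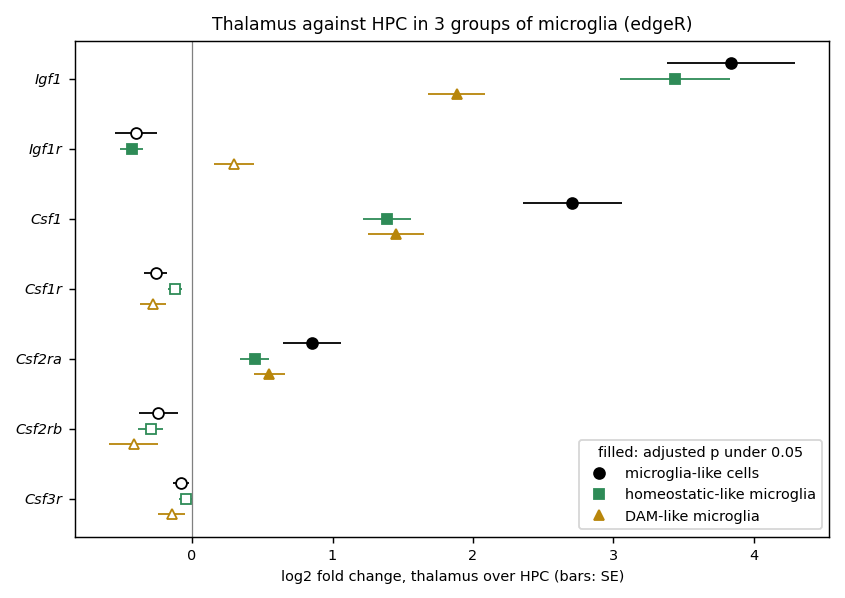
Log2 fold change of each member, thalamus over HPC, in all microglia-like, homeostatic-like and DAM-like cells (edgeR, bars SE, n = 4 and 4 sets). Filled symbols have an adjusted p under 0.05. Igf1 and Csf1 are to the right in all 3 groups, and Igf1r lies left of 0 in homeostatic-like cells and right of 0, without a call, in DAM-like cells.

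Shares of cells with a UMI were compared at equal depth, thinned to 2000 UMIs, leaving out 394 shallower thalamus and 129 shallower HPC cells. Among microglia-like cells Igf1 was detected in 10.8 ± 5.0% in thalamus sets and 0.904 ± 0.567% in HPC sets, and Csf1 in 18.1 ± 6.4% and 5.47 ± 1.92% (n = 4 each). Csf1r was detected in 91.6 ± 2.4% and 96.7 ± 1.2% and Csf3r in 54.3 ± 1.1% and 58.8 ± 1.3%. In these 4 genes the sets did not overlap, with an exact two-sided permutation p of 0.0286, the smallest that 4 against 4 sets can give, and 0.05 after adjustment over 7 members, which is not under the threshold. For Csf2ra, Igf1r and Csf2rb the sets overlapped. In T- or NK-like cells the thinned shares were 1.46% and 0.144% for Igf1, 4.29% and 2.81% for Csf1 and 17.9% and 20.9% for Csf1r, at median depths of 3529 and 4132 UMIs, against 4647 and 4775.5 in microglia-like cells.

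The ligand partners were mostly missing from these cells. Csf3 had 0 UMIs in microglia-, macrophage- or monocyte-, neutrophil-, dendritic- and T- or NK-like cells, a count that allows for up to about 3. The ligand of CSF3R was thus not detected in these cells at this depth. Il34 was seen at a very low level, with 13 UMIs in microglia-like cells, 2 in neutrophil-like, 1 in dendritic-like and 2 in B- or plasma-like cells. Csf2 had 3 UMIs in microglia-like cells and 86 in T- or NK-like cells, 63 of them in the thalamus and 23 in the HPC, and the cluster led by Trdc and Il23r held 44 and 14 of these. Il3ra, the alpha chain of the interleukin 3 receptor, which pairs with the beta chain encoded by Csf2rb, was higher in thalamic microglia-like cells (log2 1.48, SE 0.28, edgeR adjusted p = 0.00897), at 0.141 ± 0.0325 and 0.0513 ± 0.0204 UMIs per 10000 (n = 4 each). Within states Il3ra was not called, with log2 0.68 (adjusted p = 0.190) in homeostatic-like cells, at 0.0543 ± 0.0063 and 0.0420 ± 0.0232, and log2 0.74 (adjusted p = 0.0694) in DAM-like cells, at 0.269 ± 0.0433 and 0.153 ± 0.0582. Insr, the insulin receptor, and Csf2rb2 were not called.

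Of 79 further genes of the 2 axes (ligand partners, binding proteins and signalling), 63 were tested in microglia-like cells, of which 8 were higher and 5 lower in the thalamus, where 9.05% of all genes tested were called higher and 4.9% lower. The median log2 fold change of the list was -0.08, against -0.02 over all genes. On the log2 scale, Eif4ebp1, a translation repressor downstream of MTOR, rose by 0.67 in microglia-like and 0.38 in homeostatic-like cells. Foxo1, a transcription factor restrained by AKT, fell by 0.34 in microglia-like cells. Foxo1 was not called in homeostatic-like or DAM-like cells, nor Eif4ebp1 in DAM-like cells. The part of the make-up of states in these changes was not tested. In DAM-like cells Igfbp4, which binds insulin-like growth factors, fell by 1.16 and Tyrobp, an adaptor of microglial receptors, rose by 0.53.

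Genes with the pattern most like each member were ranked by Pearson r of log2 CPM over 54 sums (set by named class or state), which share libraries, so that r is a description. Igf1 was most like Ch25h (r = 0.853), Spp1 (0.848), Akr1a1 (0.824), Apoc4 (0.824) and Gpnmb (0.822), of which Spp1 and Gpnmb are in the DAM list. Csf1 was most like Hcar2 (0.856), Ccl4 (0.850) and Siglecf (0.847), Csf1r like Lair1 (0.971) and Pla2g15 (0.960), Csf3r like Gcnt1 (0.937), Csf2rb like Cd300a (0.932), Csf2ra like Tyrobp (0.901) and Igf1r like Ip6k1 (0.887). Between members, r was 0.410 for Igf1 with Csf1, -0.378 for Igf1 with Igf1r, and 0.744 for Csf2ra with Csf2rb.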

How the data were processed

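CD45 positive cells of the thalamus and HPC were profiled by 10x 3′ single-cell RNA-seq in 8 tagged sets. The methods of the study state that cells of individual mice were pooled for each region. Neither the methods nor the labels state that a set is a mouse, which is inferred here. The deposited matrices hold UMI counts per gene and cell that the authors made with Cell Ranger on mm10 (7.1.0 in the matrix header). Intron counting and the strand setting are not given in the sources used here. There were 0 unused columns of per-sample values.

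Cells with 200 to 7500 genes and at most 2% mitochondrial counts were kept. No doublets were removed. Scrublet called 0.0277% to 1.01% of a set, and removing the top 5% of scores was an alternative. Regions were integrated and clustered in Seurat 5.3.0 (2000 variable genes without the members and axis genes, 30 dimensions, resolution 0.5). Clusters were named from marker lists. The naming rule for microglial states was relaxed after the clusters were seen, so that a second list blocked a name only where its markers were also well represented among the 10 leading genes. Counts were summed per set, class and state, leaving out sums of under 20 cells (HPC set 4 for macrophage- or monocyte-like cells), and regions were compared over all genes with edgeR 4.0.16 (quasi-likelihood test, TMM, filterByExpr, Benjamini-Hochberg adjustment, threshold 0.05). DESeq2 1.42.0 was an alternative. The code was tested on simulated data. Shares of cells were compared with exact two-sided permutation tests in scipy 1.17.1 (Python 3.11.15). Intervals and floors cover counting error only.

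Named genes were the 7 members, the ligand and receptor partners, the called genes of the axis list with the largest changes, and for each member the 5 most correlated genes. Some genes of the axis list are not reported here. The members and lists were chosen with earlier results of these data known. The set numbers were checked for pairing by correlating deviations from region means. In microglia-like cells every pair exceeded 0.1 (r = 0.52, 0.15, 0.48 and 0.19), so the blocked values are given there. Only sets of the same number were correlated, so this check cannot show that they belong together. In the other comparisons not every pair did.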

Additional observations from a re-analysis of the deposited data

Results flagged for a closer look

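In 7 of 77 groups of 4 sets, 1 set lay far from the other 3 by Dixon's criterion, which chance meets in about 1 in 20 groups. HPC set 1 was 1 of these in 4 groups. Its Igf1 level in microglia-like cells was 0.148 UMIs per 10000, against 0.0461 to 0.0495 in the other HPC sets. Its Igf1r level was 1.74 in homeostatic-like cells, against 2.28 to 2.39, and 0.718 in interferon-like cells, against 1.49 to 1.52. Its Csf2rb level in interferon-like cells was 1.27, against 0.930 to 0.978. Thalamus set 1 had Csf1r at 17.8 in homeostatic-like cells, against 18.9 to 19.0, and Csf2rb at 2.48 in macrophage- or monocyte-like cells, against 1.25 to 1.33. Thalamus set 2 had Csf2rb at 1.01 in DAM-like cells, against 0.587 to 0.611. The source of these gaps was not tested.

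By the edgeR interaction term, the region effect differed between DAM-like and homeostatic-like microglia for Igf1r (0.70 on the log2 scale) and for genes of the axis list. The difference was -3.10 (SE 0.82) for Igf2r, the receptor that clears IGF2, -1.15 for Socs3, an inhibitor of cytokine signalling, and 0.72 for Tyrobp. The value of Igf2r rests on very few counts, with 13 UMIs in thalamic and 5 in HPC homeostatic-like cells. In DAM-like cells, with 86 and 45 UMIs, its region difference was not called (log2 -0.59, SE 0.33, edgeR adjusted p = 0.382).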

How the results depend on the processing

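Of 750 member fold changes under an alternative, 710 kept their side of the threshold, 22 gained a call and 18 lost one, and no called change turned its direction. Igf1 and Csf1 in microglia-like cells and Igf1 in DAM-like cells were called under every alternative run. The cause of the changes below was not tested. Fewer cells enter the fits with equal cells per set and with left-out sets. With the marker gate, 11740 genes were tested in homeostatic-like and 9518 in DAM-like cells, against 11595 and 9999 in the main fits.

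With the set number as a replicate block, 3907 genes and 5 members were called in microglia-like cells, 1033 genes in homeostatic-like, 776 in DAM-like, 4 in macrophage- or monocyte-like and 93 genes with 2 members in T- or NK-like cells. The marker gate gave 159 genes and 0 members in homeostatic-like, 110 genes in DAM-like and 11 in T- or NK-like cells, and 33 genes and 0 members for the interaction. Clustering without integration gave 199 genes and 2 members in homeostatic-like cells, 85 genes in DAM-like cells and 69 for the interaction. Equal cells per set gave 304 genes in homeostatic-like cells, 65 genes and 1 member in DAM-like cells, 0 in macrophage- or monocyte-like cells, 1 in T- or NK-like cells, and 46 genes and 0 members for the interaction. Without a count filter, 722 genes were called in DAM-like cells, 57 genes and 1 member in macrophage- or monocyte-like cells, and 28 genes and 2 members in T- or NK-like cells. DESeq2 called 33 genes in T- or NK-like cells. Without Malat1-poor cells there were 15 genes in T- or NK-like cells and 117 for the interaction, for which a mitochondrial limit of 5% gave 350. Total UMIs without factors, added after seeing the data, gave 9 genes in T- or NK-like cells and 2 members for the interaction, and moved the median of all genes for the interaction to -0.12 (log2).

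Leaving out each set in turn gave 801 to 3062 genes and 2 to 5 members in microglia-like cells, 403 to 929 and 3 to 5 in homeostatic-like, 189 to 478 and 3 to 4 in DAM-like, 0 to 1 and 0 in macrophage- or monocyte-like, 1 to 4 and 0 in T- or NK-like cells, and 118 to 230 and 1 to 2 for the interaction. Thinned shares did not overlap for 4 to 6 members. Of 71 levels under the marker gate, 20 moved. The gate could not be run for the macrophage comparison, which kept too few sets.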
